A study of Mus musculus with 38 samples.

Results

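The plasma proteins of blood clotting and of the complement system are described here from their mRNA in mouse liver. The list held 37 genes, chosen by name with earlier results of these data known. Of these, 35 had a probe set that the platform annotation gave to that gene alone, out of 17729 genes tested. Cpb2 and C3 were not analysed here. Each gene was read from its probe set with the highest mean over all 38 arrays, and 7 of the 35 had further probe sets. By role, the 35 were 10 coagulation factors and contact proteins, 3 fibrinogen chains, 5 anticoagulants and serpin inhibitors, 2 proteins of fibrinolysis, 6 of complement recognition and activation, 6 of the terminal complement pathway and 3 complement regulators.

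The livers came from male CD-1 mice, an outbred stock, 6 to 8 weeks old, with 1 array for each biological replicate. In a conazole experiment, control feed, propiconazole at 2500 ppm or triadimefon (spelled tridimefon in the labels) at 1800 ppm was given for 4 or 30 days, with 3 arrays in each of the 6 groups. In a phenobarbital experiment, control feed or phenobarbital at 850 ppm was given for the same times, with 5 arrays in each of the 4 groups. The mean daily intakes were 349.6 ± 46.7 mg/kg of propiconazole, 257.1 ± 33.5 mg/kg of triadimefon and 97.2 ± 5.9 mg/kg of phenobarbital, so the doses differed between compounds. Propiconazole and triadimefon are triazole fungicides, and phenobarbital is the classical activator of the nuclear receptor CAR. The title sets the tumorigenic triazoles against phenobarbital. Each experiment had its own controls, so that a difference between array batches cannot be told apart from one between the experiments. Every change is therefore a treated group minus the controls of the same experiment and day.

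Hepatocytes make most of these proteins and secrete them into the blood. Clotting factors circulate as inactive proteases and cofactors that activate each other in sequence until thrombin turns fibrinogen into fibrin, while protein C, protein S and antithrombin restrain the cascade and plasmin dissolves the clot. Complement is a second protease cascade of plasma: lectins or antibodies on a surface start it, C2 and factor B carry the convertase activity, and C5 to C9 assemble the membrane attack complex. Many of these genes depend on the liver transcription factors HNF1, HNF4 and C/EBP, and the fibrinogen chains also on STAT3 downstream of interleukin-6.

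Promoter windows of RefSeq (GRCm38.p6), from 250 bases before to 50 bases after the start, were at hand for 27 of the 35 members, as 28 windows of 300 bases. Of these windows, 9 held the HNF1 half-site GTTAAT, 7 held the C/EBP motif TTGCNNAA, 7 held the STAT motif TTCNNNGAA and 1 held the HNF4 motif CAAAGTC, with both strands searched and overlaps between motifs allowed. The shares were 32.1%, 25.0%, 25.0% and 3.57%, against 7.1%, 10.8%, 8.3% and 4.44% of all 32851 windows of that length. A match is a description of the letters, not of a bound site. The windows of F11 and C9 are shown because these members had the largest falls after 30 days of propiconazole, and that of Fgb because it held 3 of the motifs although the gene was called under no compound with all arrays in the fit. Fgb was not alone in this, since Fga held the same motifs and was likewise not called. Vtn, called lower at day 4 of propiconazole, held the HNF1, HNF4 and STAT motifs. Capitals mark the matches: C/EBP in F11, at chr8:45261982-45262281 on the minus strand, C/EBP in C9, at chr15:6445096-6445395 on the plus strand, and STAT, C/EBP and HNF1 from left to right in Fgb, at chr3:83049814-83050113 on the minus strand.
F11: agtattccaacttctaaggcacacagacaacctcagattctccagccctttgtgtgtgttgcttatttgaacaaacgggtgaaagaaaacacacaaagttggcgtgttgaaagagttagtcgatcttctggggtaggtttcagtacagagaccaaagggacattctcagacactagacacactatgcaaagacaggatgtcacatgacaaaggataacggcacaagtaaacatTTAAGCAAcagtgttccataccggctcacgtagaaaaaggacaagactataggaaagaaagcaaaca
C9: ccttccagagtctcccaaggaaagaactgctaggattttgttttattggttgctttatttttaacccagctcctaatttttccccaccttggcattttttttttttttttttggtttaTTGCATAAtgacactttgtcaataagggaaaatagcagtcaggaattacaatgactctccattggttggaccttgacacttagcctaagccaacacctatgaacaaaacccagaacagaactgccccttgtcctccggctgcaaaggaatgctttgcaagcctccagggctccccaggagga
Fgb: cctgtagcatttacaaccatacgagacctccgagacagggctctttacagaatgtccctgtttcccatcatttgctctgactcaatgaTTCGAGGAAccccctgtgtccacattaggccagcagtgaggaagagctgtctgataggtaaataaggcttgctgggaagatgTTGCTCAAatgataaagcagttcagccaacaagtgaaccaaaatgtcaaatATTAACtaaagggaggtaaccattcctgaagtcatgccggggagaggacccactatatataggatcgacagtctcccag

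Levels are given as log2 of the quantile-normalized intensity + 16, on which the lowest possible value is 4, and background, set by the 95th percentile of 38 olfactory receptor genes, was 6.15. The means of all 35 members lay above it. Each treatment was seen in the treated livers: Cyp2b10 and Cyp2c55, drug-metabolising enzymes induced through CAR and PXR, rose under all 3 compounds on both days, by 3.56 to 6.00 on the log2 scale. The list for this check held 4 genes, with Cyp3a11 and Alas1 besides. The summed level of the 4 lay above the same-day controls without overlap under every compound, which does not show each gene alone. The 6 measured hepatocyte markers were above background on all 38 arrays, and none was called under any compound on either day by limma, with 0 or 1 of 6 at an unadjusted p under 0.05. One array stood apart, replicate 2 of propiconazole at day 4. Its Gapdh control probe sets read 6.39 log2 units higher at the 3′ end than at the 5′ end, against -0.37 to 0.22 on the other arrays, and its median intensity of 12.5 was the lowest. The same difference was 1.84 for Actb, against 0.28 to 1.30 on the other arrays. For Tfrc it was 1.31, within the 1.13 to 3.25 of the other arrays. Results for that group are given with and without it.

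After 4 days of propiconazole, 11 of the 35 members were lower than in controls and 0 were higher (limma across all genes, Benjamini-Hochberg adjusted p under 0.05). Over all genes tested, 13.9% were called, 6.53% lower and 7.36% higher, and of the 3424 genes at least as bright as the dimmest member 14.9% were called lower. The median change over the 35 members was -0.21, against 0.03 over all genes. The called members were 7 of the 10 coagulation factors (F5, F11, F12, F7, F2, Kng1, Klkb1), both proteins of fibrinolysis (Plg, Serpinf2), the anticoagulant Proc and the complement regulator Vtn. Fibrinogen chains, complement activation and the terminal pathway had 0 calls among 3, 6 and 6 members, with 0, 1 and 1 members at an unadjusted p under 0.05. The 24 members that were not called changed by -0.35 (Mbl1) to 0.80 (C6). All 3 treated arrays lay below all 3 controls for 6 members, 5 of them called, and above for 1, against 6.85% and 9.37% of all genes and 12.9% and 13.1% of the brighter genes. The count was 7 without replicate 2 of propiconazole, 7 and 5 without control replicates 1 and 2, and 0 either with only the compared groups in the fit or with array weights. Scaling mattered too: as deposited, without quantile normalization, the median change of all genes was -0.16, 225 genes were higher and 2371 lower, against 1305 and 1158 here, and 18 members were lower. With arrays scaled to a common median, 736 genes were higher and 1166 lower, and 5 members were lower and 1 higher.

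F5, the cofactor with which activated factor X cleaves prothrombin, had levels of 11.58, 11.73 and 11.67 in the day 4 controls and of 10.76, 10.11 and 11.28 in propiconazole replicates 1 to 3. All 3 treated arrays lay below all 3 controls, replicate 3 least far. The change was -0.95 ± 0.16 (SE, adjusted p = 0.000285), a ratio of 0.518. A second F5 probe set changed by -0.32.

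Factors XII and XI, prekallikrein and high-molecular-weight kininogen form the contact system, in which factor XII and kallikrein activate each other on a surface and factor XI passes the signal on. F12 read 11.47, 11.52 and 11.44 in controls and 10.92, 10.02 and 11.39 under propiconazole, a change of -0.70 ± 0.16 (adjusted p = 0.00452). F11 read 9.30, 9.75 and 10.13 in controls and 8.63, 8.85 and 9.48 under propiconazole, a change of -0.74 ± 0.21 (adjusted p = 0.0181). The groups were separate for F12, narrowly at replicate 3, and overlapped for F11. Klkb1, which encodes prekallikrein, read 11.86, 11.93 and 11.88 in controls and 11.08, 11.66 and 11.71 under propiconazole (-0.41 ± 0.11, adjusted p = 0.0152). Kng1, which encodes kininogen, read 12.92, 12.79 and 12.67 in controls and 12.06, 12.62 and 12.38 under propiconazole (-0.44 ± 0.11, adjusted p = 0.00654). Neither overlapped with its controls, and all 4 contact proteins were among the called members. The second Kng1 probe set changed by -0.14.

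F7, whose product starts clotting with tissue factor, read 10.95, 10.85 and 10.71 in controls and 10.48, 9.31 and 10.89 under propiconazole (-0.61 ± 0.20, adjusted p = 0.0382). F2, which encodes prothrombin, read 12.73, 12.83 and 12.79 in controls and 12.36, 12.21 and 12.78 under propiconazole (-0.34 ± 0.09, adjusted p = 0.0107). Both groups overlapped at replicate 3. F9, F10 and F13b, the carrier subunit of factor XIII, were not called, with changes of -0.15, 0.09 and 0.00, although 2 further probe sets of F10 changed by 0.37 and 0.72. The 3 fibrinogen chains, the substrate of thrombin, changed by -0.06 to -0.13.

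Proc encodes protein C, which inactivates activated factor V. It read 12.23, 12.20 and 12.16 in controls and 11.56, 11.86 and 12.07 under propiconazole, without overlap (-0.37 ± 0.10, adjusted p = 0.0144). Its cofactor Pros1 (0.35 ± 0.24) and Serpinc1 (antithrombin), Serpind1 (heparin cofactor II) and Serping1 (C1 inhibitor), at -0.20, -0.14 and -0.27, were not called.

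Plg, the zymogen of plasmin, read 13.26, 13.22 and 13.13 in controls and 13.25, 10.77 and 12.70 under propiconazole. Its change of -0.96 ± 0.28 (adjusted p = 0.0196) came mainly from replicate 2, since replicate 1 lay within the controls. Vtn, or vitronectin, which keeps the membrane attack complex from inserting, read 13.11, 13.17 and 13.07 in controls and 12.77, 12.39 and 13.08 under propiconazole (-0.37 ± 0.10, adjusted p = 0.0138). Serpinf2, the inhibitor of plasmin, changed by -0.30 ± 0.09 (adjusted p = 0.0326). Vtn and Serpinf2 overlapped with their controls, and a second Vtn probe set changed by -0.97.

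**Figure D1:**
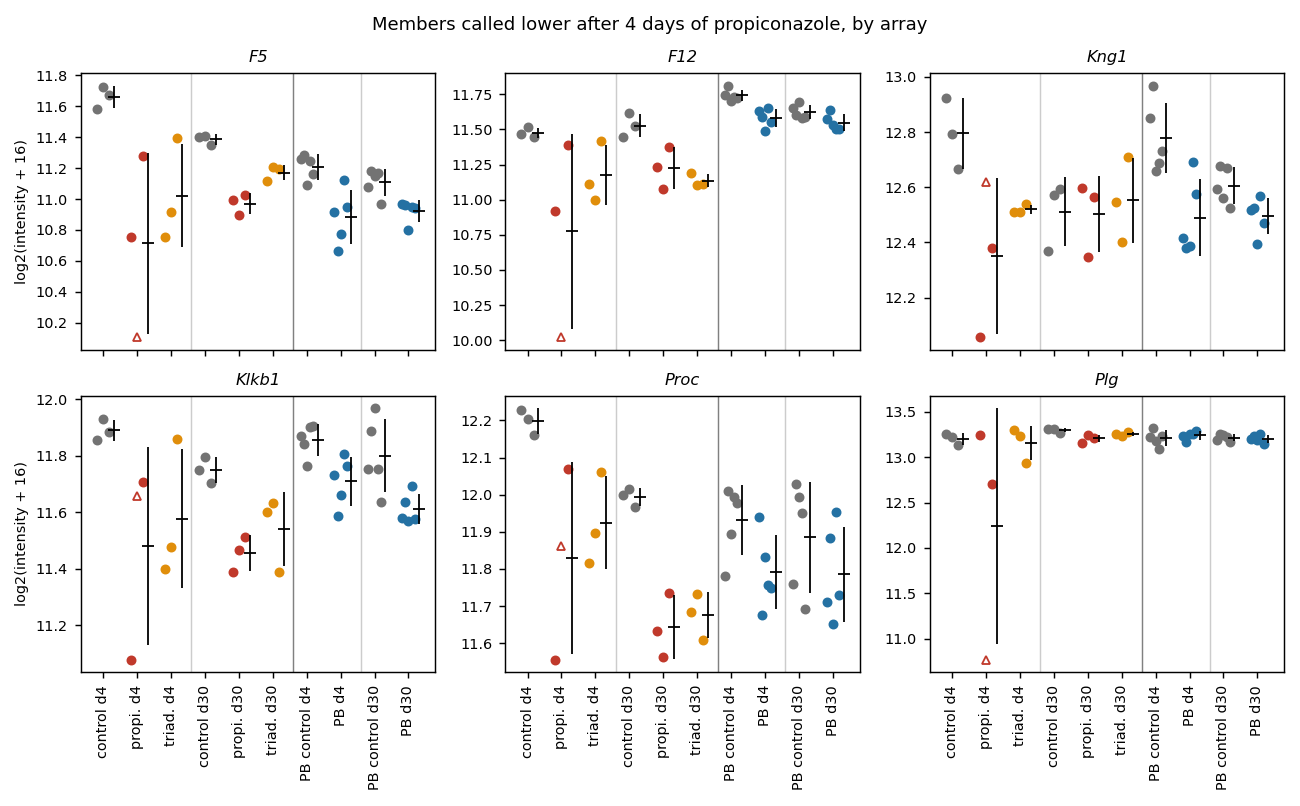
Level of 6 members called lower after 4 days of propiconazole, as log2(intensity + 16), on each of the 38 arrays by group (points, with the group mean ± SD beside them, n = 3 or 5). The open triangle is propiconazole replicate 2 at day 4, the lowest array of its group for Plg (10.77), F5 (10.11) and F12 (10.02). Kng1, Klkb1 and Proc were lowest on replicate 1, where F5 and F12 also lay below the controls.

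Without replicate 2 of propiconazole, 7 members were called lower and 0 higher, against 4.91% of all genes called lower. F5 (-0.64, adjusted p = 0.00235), F12 (-0.32, adjusted p = 0.0348), Kng1 (-0.58, adjusted p = 0.000988), Klkb1 (-0.50, adjusted p = 0.00942) and Proc (-0.38, adjusted p = 0.0288) were called with and without it. Fgb (-0.25, adjusted p = 0.0285) and Mbl1 (-0.61, adjusted p = 0.0344), a mannose-binding lectin, were called only without it. The calls of F2, F7, F11, Plg, Serpinf2 and Vtn were lost, with adjusted p-values from 0.0722 for F11 to 0.513 for F7. The change of F11 stayed about as large, at -0.67 against -0.74 with all arrays, while that of F7 was -0.15 against -0.61. Plg then changed by -0.23 (adjusted p = 0.13). The spread among the 3 propiconazole arrays was wider than in any other group, with a median member SD of 0.29 against 0.0906 in the controls. Against the control mean, 28 of the 35 members were lower on replicate 1, 23 on replicate 2 and 21 on replicate 3, with median differences of -0.35, -0.18 and -0.01.

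**Figure D2:**
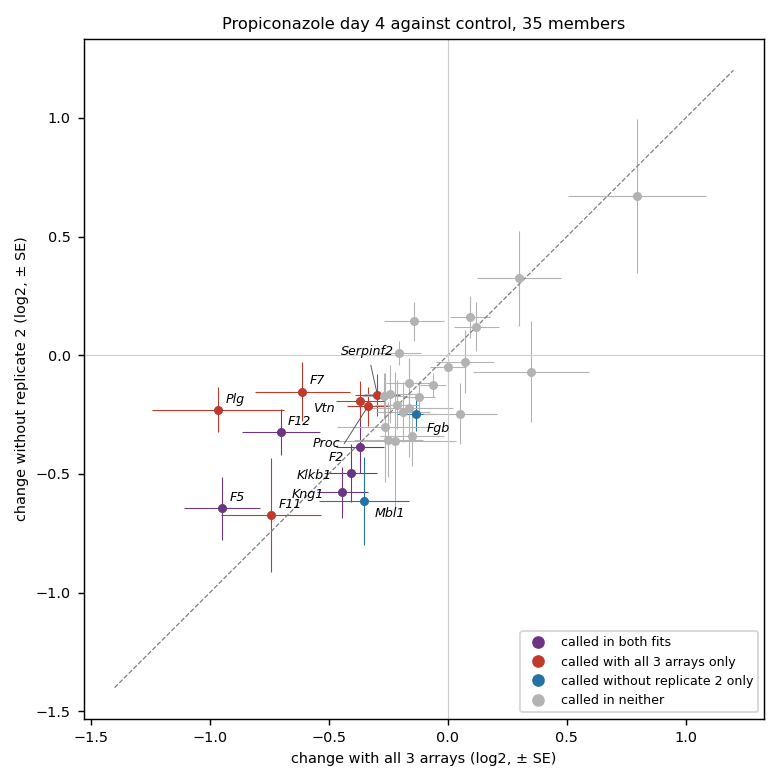
Change of the 35 members at day 4 of propiconazole on the log2 scale with all 3 arrays (horizontal axis) and without replicate 2 (vertical axis), each with its SE; the dashed line marks equal values. Plg, F7, F12 and F5 lie above the line, so their falls were smaller without that array, while 5 members stayed called.

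Triadimefon for 4 days gave 1 call among the members, F5, with levels of 10.76, 10.92 and 11.40, all below the controls (-0.64 ± 0.16, adjusted p = 0.021). The second F5 probe set changed by -0.32. The background was 3.75% of all genes called, 1.65% lower and 2.1% higher. The call was lost without control replicate 2 (adjusted p = 0.0807) and without triadimefon replicate 1 (0.155) or 2 (0.0747), and 4 members were called without replicate 3. With propiconazole replicate 2 of day 4 left out of the shared fit, 2 members were called. With the values as deposited, where all genes shifted by a median of 0.17 and 1562 were higher and 112 lower (373 and 292 here), F5 was not called (-0.37, adjusted p = 0.242). The changes of 29 of the 35 members were below 0, with a median of -0.15, and 10 had an unadjusted p under 0.05. After F5, the largest falls were those of C9 (-0.51 ± 0.20), F11 (-0.49 ± 0.21) and Mbl1 (-0.47 ± 0.19), with adjusted p-values of 0.159, 0.197 and 0.163. The arrays lay wholly below controls for 9 members and above for 1, against 8.9% and 10.5% of all genes and 14.5% and 15.3% of the brighter genes. The 9 were F5, F12, Kng1, Proc, Serping1, Fga, C8a, C9 and Cfi.

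After 30 days of propiconazole, 6 members were lower and 1 was higher. Over all genes, 10.8% were called, 5.53% lower and 5.29% higher, and of the 3424 brighter genes 9.17% were called lower. The median member change was -0.15 and that of all genes 0.00. F11 and Proc, also called lower at day 4 with all arrays in the fit, were among the falls. The others were the complement proteins C9, C8b, Mbl1 and Cfi, while C2 rose. The members that were not called changed by -0.42 (F5) to 0.41 (Masp1). The count was 3 without control replicate 1 or 2 or propiconazole replicate 2, 4 without control replicate 3 or propiconazole replicate 3, and 2 with only the compared groups in the fit. With propiconazole replicate 2 of day 4 left out of the shared fit it was 10, 2 higher and 8 lower. Scaled to a common median, 433 genes were higher and 775 lower, against 937 and 980 here, and 2 members were called.

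F11 read 9.85, 9.53 and 9.48 in the day 30 controls and 8.56, 8.73 and 8.38 under propiconazole. The highest treated array was well below the lowest control, and the change was -1.06 ± 0.21 (adjusted p = 0.00114), a ratio of 0.478. C9, the protein that forms the ring of the membrane attack pore, read 13.15, 13.26 and 12.88 in controls and 11.995, 12.70 and 11.68 under propiconazole. All 3 treated arrays lay below the controls, with a wide spread among them (SD 0.52), and the change was -0.98 ± 0.20 (adjusted p = 0.00169). The F11 call held under all 17 alternative settings and that of C9 under 16 of 17, the exception being the fit on the compared groups alone (adjusted p = 0.168).

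C8b, a chain of the complement component that anchors the pore, read 11.78, 11.87 and 11.40 in controls and 11.32, 11.30 and 10.64 under propiconazole (-0.59 ± 0.18, adjusted p = 0.0331). Its partner chains C8a and C8g were not called, at -0.30 ± 0.14 and -0.13 ± 0.10. Hc, which encodes C5, and C6 changed by -0.26 ± 0.26 and -0.04 ± 0.29. C8b was not called without propiconazole replicate 3 (-0.37, adjusted p = 0.25), control replicate 1 (0.103) or control replicate 2 (0.134).

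Mbl1 read 11.37, 11.55 and 11.23 in controls and 10.94, 10.82 and 10.68 under propiconazole (-0.57 ± 0.19, adjusted p = 0.0466). The second lectin, Mbl2, changed by 0.11 ± 0.11 and was not called. Cfi, the protease that cleaves C3b and C4b, read 12.71, 12.92 and 12.81 in controls and 12.61, 12.54 and 12.45 under propiconazole (-0.28 ± 0.09, adjusted p = 0.0498). Neither overlapped with its controls, but the calls of Mbl1 and Cfi were each kept under only 5 of 17 alternative settings. Proc read 11.999, 12.01 and 11.97 in controls and 11.63, 11.56 and 11.73 under propiconazole (-0.35 ± 0.10, adjusted p = 0.0222), the treated arrays again all lower. Its call was kept under 10 of 17 alternative settings and lost under 7, with adjusted p-values up to 0.113.

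C2, the protease of the classical and lectin convertase, read 9.9997, 10.50 and 10.10 in controls and 11.02, 10.75 and 10.54 under propiconazole (0.57 ± 0.18, adjusted p = 0.0341). The treated arrays were all higher, replicate 3 narrowly so, and the 3 probe sets of C2 changed by 0.57, 0.80 and 0.56. The call was lost without any 1 of control replicates 1 and 3 and propiconazole replicates 1 and 2, with adjusted p-values of 0.0725 to 0.156. Cfb, its neighbour on chromosome 17 and counterpart in the alternative pathway, changed by -0.26 ± 0.11 and was not called.

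At day 30, 19 of the 35 members had all 3 propiconazole arrays below all 3 controls and 3 had them above. Over all genes the shares were 12.4% and 11.9%, and over the 3424 brighter genes 22.5% and 17.1%. Besides the called members, the 19 included F2, F5, F12, Klkb1, Fga, Fgb, Serpinf2, C8g, Cfb and C4bp, with changes between -0.42 for F5 and -0.10 for Fga. On each of the 3 treated arrays 24 to 26 members were below the control mean, so the shift did not rest on 1 treated array. All were set against the same control mean, so these counts cannot show whether it rested on 1 control array.

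**Figure D3:**
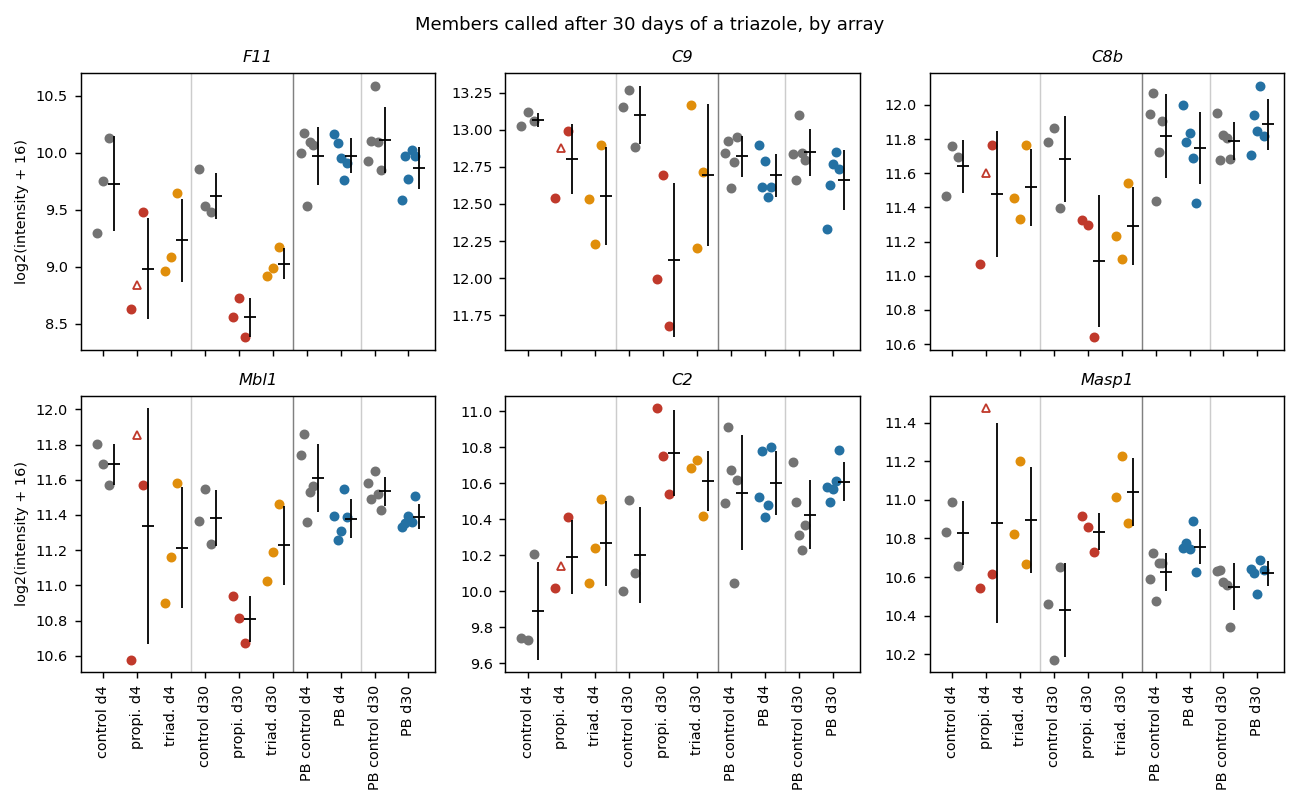
Level of 6 members called after 30 days of a triazole, as log2(intensity + 16), on each of the 38 arrays by group (points, with the group mean ± SD beside them, n = 3 or 5). F11 was lower in all 3 day 30 propiconazole arrays (8.38 to 8.73) than on any array of the controls (9.30 or higher), while C2 and the Masp1 probe set shown moved up. The other Masp1 probe sets changed in both directions under each triazole.

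After 30 days of triadimefon, Masp1 was the only member called, and it was higher. Masp1 encodes a protease that circulates with the lectins. It read 10.46, 10.17 and 10.65 in controls and 11.02, 11.23 and 10.88 under triadimefon (0.61 ± 0.16, adjusted p = 0.0193). The groups did not overlap, but the 4 other Masp1 probe sets changed by -0.47, -0.34, 0.27 and 0.35, and with the mean of all probe sets the change was 0.08 (adjusted p = 0.852). The call was also lost without control replicate 2 (adjusted p = 0.111) and without triadimefon replicate 1 (0.052) or 2 (0.0797), while 3 members were called with propiconazole replicate 2 of day 4 left out of the shared fit. Of all genes, 5.4% were called, 2.41% higher and 3% lower. F11 (-0.60 ± 0.21, adjusted p = 0.0961), Proc (-0.32 ± 0.10, adjusted p = 0.0595) and C9 (-0.40 ± 0.20, adjusted p = 0.275) were not called. The F11 arrays, at 8.92, 8.99 and 9.18, and the Proc arrays all lay below their controls. Treated arrays lay wholly below controls for 10 members and above for 2, against 11.8% and 9.27% of all genes and 22.2% and 14.3% of the brighter genes. The median member change was -0.04, and 19 of the 35 changes were below 0.

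Phenobarbital gave 0 called members at day 4 and 0 at day 30, where 0.677% and 0.479% of all genes were called by limma. At an unadjusted p under 0.05 there were 5 members at day 4 and 2 at day 30, and with array weights 3 and 2 were called. With propiconazole replicate 2 of day 4 left out of the shared fit, 2 members were called at day 4. The largest fall at day 4 was that of F5, from a lowest, median and highest level of 11.09, 11.24 and 11.29 in controls to 10.66, 10.91 and 11.12 (-0.32 ± 0.12, adjusted p = 0.318, 95% interval -0.58 to -0.07). The second F5 probe set changed by -0.50. The largest rise at day 30 was that of C6, from 10.56, 10.96 and 11.36 to 11.02, 11.23 and 11.41 (0.32 ± 0.22, adjusted p = 0.982). Both pairs of groups overlapped. Arrays lay wholly below controls for 3 members at day 4 and 1 at day 30 (2.22% and 1.97% of all genes, 5.2% and 5.4% of the brighter genes) and above for 0 and 2 (2.88% and 2.24%, and 5.75% and 4.44% of the brighter genes). For F11 and C9, the day 30 changes were -0.25 and -0.19, with 95% intervals of -0.58 to 0.09 and -0.51 to 0.13. The member medians were -0.07 and -0.04, and the day 30 median turned to 0.04 with the values as deposited and to 0.11 with a common median.

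**Figure D4:**
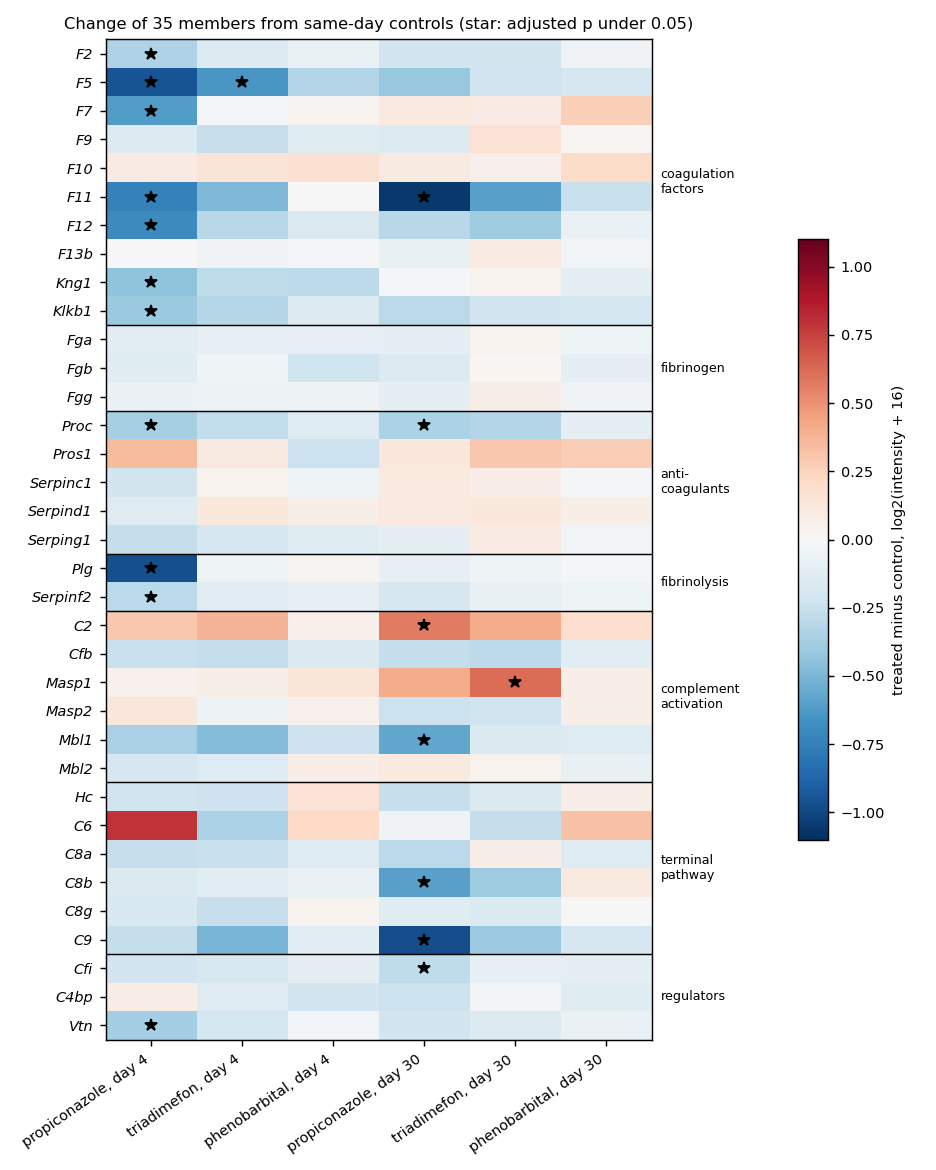
Change of the 35 members from same-day controls under the 3 compounds at 2 times, as a difference in log2(intensity + 16), with members in rows by role and stars where the adjusted p was under 0.05. Blue marks values below and red values above the controls. Most stars (11) lie in the propiconazole day 4 column, and the phenobarbital columns have none.

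The direct differences were few. The 2 triazoles, given at different doses, were compared at day 4 and at day 30 with p-values adjusted over all genes, which gave 1 and 0 called members against 1.84% and 3.9% of all genes (0.981% higher under propiconazole at day 4). The 1 call was C6, which joins C5b in the terminal complex, with levels of 10.85, 11.26 and 10.93 under propiconazole and 9.94, 9.26 and 10.42 under triadimefon at day 4 (1.14 ± 0.29, adjusted p = 0.0372). The day 4 controls, at 9.60, 10.44 and 10.61, overlapped with triadimefon and lay below propiconazole. The call was lost without propiconazole replicate 2 (1.02, adjusted p = 0.149) and without triadimefon replicate 1 (0.0888) or 2 (0.153). At day 30, 10 members had an unadjusted p under 0.05, and array weights gave 0 calls. With the values as deposited the median of all genes was -0.38 at day 4, with 97 genes higher and 5969 lower (174 and 152 here), and 23 members were lower under propiconazole. The day 4 count was 7 and 9 without propiconazole replicates 1 and 3, and the day 30 count was 1 without propiconazole replicate 1 or 2, triadimefon replicate 2 or, in the shared fit, propiconazole replicate 2 of day 4. C9 differed there by -0.57 (95% interval -0.99 to -0.16, adjusted p = 0.115) and F11 by -0.47 (-0.90 to -0.04, adjusted p = 0.238).

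The change from day 4 to day 30 was called for 0 members under propiconazole, triadimefon or phenobarbital, with 7, 4 and 0 at an unadjusted p under 0.05 and 0 with array weights. Over all genes, 1.95%, 1.31% and 0.00564% were called. The members nearest to a call under propiconazole were Kng1 (0.43 ± 0.15, adjusted p = 0.133), whose fall was seen at day 4, and C9 (-0.71 ± 0.29, adjusted p = 0.197), whose fall was seen at day 30. The difference between days was thus called for neither. Under propiconazole the count was 1, 2 and 4 without replicates 1, 2 and 3 of day 4, and 1 without replicate 1 or 2 of day 30. Under propiconazole 23 members were below 0 on both days, and F11 and Proc were called on both with all arrays in the fit. The day 4 call of F11 was lost without replicate 2 (adjusted p = 0.0722) and kept under 10 of 16 alternative settings. That of Proc was kept under 11 of 16.

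The change under a triazole minus that under phenobarbital was called for 0 members in all 4 comparisons, with 7 (propiconazole) and 1 (triadimefon) at an unadjusted p under 0.05 at day 4 and 4 and 3 at day 30. Over all genes, 1.83%, 0.0451%, 1.92% and 0.451% were called. With array weights the counts were 0 and 0 at day 4 and 2 and 1 at day 30. For propiconazole the day 4 count was 1 and 8 without its replicates 1 and 3, and the day 30 count was 1 without its replicate 1 or 2. The day 30 count for triadimefon was 1 with propiconazole replicate 2 of day 4 left out of the shared fit. The smallest adjusted p-values were those of F5 at day 4 (-0.62 ± 0.20, adjusted p = 0.102) and of C9 (-0.79 ± 0.26, adjusted p = 0.105), F11 (-0.82 ± 0.27, adjusted p = 0.109) and C8b (-0.69 ± 0.23, adjusted p = 0.12) at day 30, all for propiconazole. The second F5 probe set went the other way at day 4, with a larger fall under phenobarbital (-0.50) than under propiconazole (-0.32). So the falls under propiconazole were not shown to differ from the phenobarbital values for any member, while the intervals for F11 at day 30 (-1.36 to -0.27) and C9 (-1.31 to -0.27) lay below 0 before adjustment.

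Of 43 further genes of the 2 cascades, receptors and regulators included, 34 were measured and 20 had means above background. At day 4 of propiconazole, 2 were higher and 3 lower, 5.88% and 8.82% of the list against 7.36% and 6.53% of all genes. The falls were Proz, a vitamin K-dependent cofactor of anticoagulation (-0.58 ± 0.14, adjusted p = 0.00594), Colec11, a collectin (-0.63 ± 0.17, adjusted p = 0.0108), and Cd59a, which blocks C9 on cell surfaces (-0.35 ± 0.09, adjusted p = 0.00749). These 3 were also called without propiconazole replicate 2. The rises were Crp, the C-reactive protein that can start the classical pathway (0.37 ± 0.12, adjusted p = 0.0313), and Plaur, the urokinase receptor, whose mean lay below background (adjusted p = 0.027), and neither was called without that array (adjusted p = 0.349 and 0.203). Cd59a was lower after 4 days of triadimefon too (-0.39 ± 0.09, adjusted p = 0.00931), where 1 gene was higher (Plat) and 3 were lower (Vwf and A2m besides Cd59a), and Plat, Vwf and A2m had means below background. These were 2.94% and 8.82% of the list, against 2.1% and 1.65% of all genes. Crp was higher at day 30 under propiconazole (0.52 ± 0.12, adjusted p = 0.00358), triadimefon (0.56 ± 0.12, adjusted p = 0.00452) and phenobarbital (0.39 ± 0.09, adjusted p = 0.0373). At day 30 propiconazole gave 2 higher, Crp and Clu, and 1 lower, C1ra, a protease of C1 (-0.47 ± 0.16, adjusted p = 0.0496), triadimefon gave 3 higher and 0 lower, Crp, C1qc (1.48 ± 0.34, adjusted p = 0.00877) and C5ar1, its mean below background, and phenobarbital gave Crp alone. For propiconazole these were 5.88% and 2.94% of the list, against 5.29% and 5.53% of all genes. The rises were 8.82% of the list against 2.41% of all genes for triadimefon, and 2.94% against 0.395% for phenobarbital.

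Of 13 liver transcription factors, 11 were measured. At day 4 of propiconazole 1 was higher and 3 lower, 9.09% and 27.3% of the list against 7.36% and 6.53% of all genes. Cebpa, which encodes C/EBP alpha, ranged from 12.13 to 12.27 in controls and from 9.81 to 11.60 under propiconazole (-1.24 ± 0.23, adjusted p = 0.000706; -0.68 and 0.000753 without replicate 2). Nr1i3, which encodes CAR (-2.20 ± 0.59, adjusted p = 0.0119), and Prox1 (-1.21 ± 0.31, adjusted p = 0.00956) were lower too, but not called without that array (-0.66 and -0.85, adjusted p = 0.0515 and 0.0957). The higher factor, Cebpd (1.199 ± 0.33, adjusted p = 0.0163), was not called without it either (0.96, adjusted p = 0.0989). At day 30 of propiconazole Prox1 (-1.57 ± 0.31, adjusted p = 0.00114) and Foxa3 (-0.93 ± 0.27, adjusted p = 0.0255) were lower and 0 were higher. The falls were 18.2% of the list, against 5.53% of all genes. Triadimefon and phenobarbital gave 0 calls by limma in this list, with 2 and 4 (triadimefon) and 1 and 0 (phenobarbital) at an unadjusted p under 0.05. The part of these factors in the changes of the members was not tested.

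Of 18 genes of interleukin-6 signalling and the acute phase, all measured, 2 were higher (Orm3, Saa3) and 1 lower (Il6ra) at day 4 of propiconazole, none of them called without replicate 2 (adjusted p = 0.266, 0.525 and 0.206), 2 and 2 at day 30, and 4 (Lcn2, Orm3, Orm2, Il6st) and 0 at day 30 of triadimefon. In that order, the shares were 11.1% and 5.56%, 11.1% and 11.1%, and 22.2% and 0%. Over all genes they were 7.36% and 6.53%, 5.29% and 5.53%, and 2.41% and 3%. Under propiconazole at day 30 Lcn2, an iron-withholding protein of inflammation, was at 5.18 or less in controls, below background, and at 9.09 to 11.37 in treated livers (adjusted p = 0.00422), while Itih3 (-0.80 ± 0.20, adjusted p = 0.00905) and Itih4 (-0.44 ± 0.14, adjusted p = 0.0425), secreted inhibitor heavy chains, fell. Orm3 rose under both triazoles at day 30 (adjusted p = 0.00251 and 0.00947), from 4.40 or less in controls, below background, to 8.61 to 10.12 and 7.46 to 10.62. No size is given for these rises of Lcn2 and Orm3, because their controls lay below background. Orm3 encodes an orosomucoid, a carrier protein of the acute phase. The fibrinogen chains, which are themselves acute phase proteins, were called in none of these comparisons with all arrays, though Fgb was called lower at day 4 of propiconazole without replicate 2 (-0.25, adjusted p = 0.0285).

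Markers of other cells moved with some groups. For these counts, the shares of all genes called higher and lower were 7.36% and 6.53% at day 4 of propiconazole and 5.29% and 5.53% at day 30. They were 2.1% and 1.65% at day 4 of triadimefon and 2.41% and 3% at day 30, and 0.53% and 0.147% at day 4 of phenobarbital. In bulk tissue, fewer cells of a type and less RNA per cell cannot be told apart. At day 30 of triadimefon, where Masp1 was called, 4 of 8 Kupffer cell markers (Marco, Timd4, Adgre1, Csf1r) were higher and 0 lower, with a summed level of 12.21 to 13.80 against 11.97 to 12.39 in controls, and the macrophage gene C1qc rose with them. At day 30 of propiconazole 0 of these 8 were called by limma, with 3 at an unadjusted p under 0.05, all 8 changes were above 0 (median 0.56), and the summed level was 12.20 to 13.11. Of 6 markers of sinusoidal endothelium, Stab2 and Clec4g were lower at day 4 of triadimefon, where F5 was called, with a summed level of 10.22 to 10.86 against 10.64 to 11.64, and Lyve1 and Cdh5 were higher at day 30, with 11.19 to 11.35 against 11.30 to 11.38. Of the 6 changes at day 30 of triadimefon, 2 were above 0 and 3 below, down to -0.44, with a median of -0.02. The lymphocyte list had 1 of 4 higher at day 30 of triadimefon, Ptprc, with a summed level of 7.76 to 9.43 against 7.45 to 7.81, and Cd3e was below background on all arrays. The platelet list had 1 of 5 higher at day 30 of propiconazole, Gp1bb, with 8.99 to 9.30 against 8.38 to 8.97. Under propiconazole, 1 of 5 neutrophil markers, S100a8, was higher on both days (adjusted p = 0.0175 and 0.0109; 0.129 at day 4 without replicate 2) from controls below background, with a summed level of 9.06 to 12.73 against 8.42 to 9.07 at day 4 and of 8.42 to 12.26 against 8.62 to 8.99 at day 30, while Camp, a defining granule gene, stayed below background on all arrays. S100a8 was higher at day 30 of triadimefon too (adjusted p = 0.012), with a summed level of 10.74 to 11.18 that did not overlap with the controls. The stellate cell markers had 1 of 7 lower at day 4 of propiconazole and 2 of 7 at day 30, with summed levels of 10.66 to 11.77 against 11.43 to 12.08 and of 11.44 to 11.64 against 12.01 to 12.46. Without replicate 2 the stellate call at day 4, Reln, had a change of -0.75 against -0.85 with it, and an adjusted p of 0.0814. Of 4 biliary markers, Epcam and Sox9 were higher on both days of propiconazole (Sox9, below background in controls, changed at day 4 by 1.06 with replicate 2 and 1.11 without it, the latter with an adjusted p of 0.0899), with summed levels of 8.998 to 9.17 against 8.49 to 8.73 and of 9.50 to 9.70 against 8.83 to 9.20, and Krt7 was below background on all arrays. Of the 4 biliary changes under propiconazole, 3 were above 0 and 1 below (-0.47) at day 4. At day 30, 2 were above 0 and 1 below (-0.81). Sox9 was also higher at day 4 of triadimefon and of phenobarbital (adjusted p = 0.00879 and 0.0418). The hepatocyte markers, with 0 of 6 called, summed to 15.48 to 15.62 against 15.51 to 15.57 at day 4 of propiconazole and to 15.47 to 15.64 against 15.60 to 15.70 at day 30. The part of other cell types in the changes of the members was not tested.

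Some members are neighbours on a chromosome: F11 and Klkb1, and F7 and F10, on chromosome 8, the 3 fibrinogen genes on chromosome 3, C8a and C8b on chromosome 4, and C2 and Cfb on chromosome 17. F11 and Klkb1 fell together at day 4 of propiconazole, with ratios of 0.598 and 0.753. At day 30 Klkb1 changed by -0.29 ± 0.11 (adjusted p = 0.0923), its arrays of 11.39, 11.47 and 11.51 all below the controls of 11.75, 11.80 and 11.70. In the pairs C8a and C8b and C2 and Cfb at day 30, and F7 and F10 at day 4, only C8b, C2 and F7 were called under propiconazole.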

How the data were processed

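Liver RNA of 38 mice was hybridised to 1 Affymetrix mouse 430_2 array each, per the labels' protocols. The values the authors deposited are intensities on a linear scale, 1 for each probe set, and 21.15% of them lay below 0. The software and scaling behind these intensities are not given in the sources used here. Arrays were grouped by the group named in their titles. Intensities were quantile normalized, floored at 0 and written as log2(value + 16), which understates the change of dim genes. Of 45101 probe sets, 34958 had 1 gene symbol in the platform annotation, 932 had several and 9211 were unlisted. Each gene kept its probe set with the highest mean, and 465 of 18194 genes with constant values were left out. One linear model over all 38 arrays, with a mean per group, was fitted in limma 3.58.1 (R 4.3.3). It used an intensity trend and had 28 residual and 2.91 prior degrees of freedom. A later run on simulated data gave each gene the same spread in all groups, so it cannot judge groups of unequal spread. The model gave 15 comparisons, each with p-values adjusted over 17729 genes by Benjamini-Hochberg and called under 0.05. Changes have model SEs and 95% intervals. The p-values measure the spread between the livers, with a shared value for each gene over all groups. For propiconazole at day 4 the median member SD was 0.29, against 0.0659 to 0.122 in the groups of the phenobarbital experiment. The SEs and p-values of propiconazole at day 4 may therefore be too small. The small number of arrays limits the precision.

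The members and the gene lists were chosen with earlier results of these data known. All members were accounted for, and every called member is named. Members not called are given by range and counts, with some named to show neighbouring values, and genes of other lists are named from those called, up to 5 per list and comparison. Alternatives were the values as deposited, a common median, pseudocounts of 4 and 64, genes above background only, the mean over probe sets, only the groups compared, replicate number as a block, no trend, array weights, and each array left out. No 2 arrays held identical values.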

Additional observations from a re-analysis of the deposited data

Results flagged for a closer look

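Among the groups of 5 arrays, 9 of 140 sets of member values (6.43%) had 1 array whose distance to its nearest neighbour took up most of the group's range, where chance gives about 1 in 20. All lie in the phenobarbital experiment, since groups of 3 arrays were not tested. Replicate 3 of the day 4 controls held 4 of the 9, all low: F2 at 12.87 (next lowest 12.99), F11 at 9.533 (next lowest 9.998), Serpind1 at 11.98 (next lowest 12.25) and Hc, which encodes complement C5, at 10.79 against 12.13 to 12.39 in the other 4 controls. Replicate 2 of phenobarbital at day 30 held 2, Mbl2 low at 11.79 (next lowest 12.06) and Vtn high at 13.21 (next highest 13.1). The other 3 were F5 at 10.8 in phenobarbital replicate 3 at day 30 (next lowest 10.95), F13b at 11.59 in phenobarbital replicate 4 at day 4 (next highest 11.49) and Masp1 at 10.34 in control replicate 5 at day 30 (next lowest 10.56). None of these genes was called under phenobarbital.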

How the results depend on the processing

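The 21 calls of named members, over up to 17 alternatives each, were kept in 229 of 345 cases, missed the threshold in 116 and reversed in 0. In counts of called members, the values as deposited gave 18 and 4 for propiconazole at days 4 and 30, 0 for triadimefon at day 30, 23 for propiconazole against triadimefon at day 4 and 5 for propiconazole minus phenobarbital at day 4. A common median gave 6 and 2 for propiconazole, 0 for triadimefon at day 30 and 1 for propiconazole minus phenobarbital at day 30. Genes above background alone gave 1 for phenobarbital at day 4 and 2 for triadimefon at day 30, and the mean of probe sets gave 0 for the latter. Only the groups compared gave 0 and 2 for propiconazole, 0 and 0 for triadimefon, 1 and 1 for phenobarbital, 0 for the triazoles against each other at day 4, and 2 each for both triazoles minus phenobarbital at day 30. Array weights gave 0 and 4 for propiconazole, 2 for triadimefon at day 30, 3 and 2 for phenobarbital, 0 between the triazoles at day 4, and 2 (propiconazole) and 1 (triadimefon) minus phenobarbital at day 30. Leaving propiconazole day 4 replicate 2 out of the shared fit gave 2 for triadimefon and 2 for phenobarbital at day 4, 10 for propiconazole and 3 for triadimefon at day 30, 1 between the triazoles at day 30 and 1 for triadimefon minus phenobarbital at day 30. The cause was not tested.

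With the replicate number as a block, the counts were 12 and 4 for propiconazole at days 4 and 30 and 0 between the triazoles at day 4. Same-numbered arrays correlated in their deviations from the group means at -0.104 to 0.155, with 4 of 28 pairs over 0.1. These 4 all lay in comparisons that included propiconazole. With so few arrays a group, such correlations cannot decide whether same-numbered arrays were handled together.

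Leaving out 1 array of the compared groups at a time gave 5 to 16 and 3 to 5 called members for propiconazole at days 4 and 30, 0 to 4 and 0 to 1 for triadimefon, and 0 for phenobarbital. It gave 0 to 9 and 0 to 1 between the triazoles, 0 to 4 for the change of propiconazole between days, and 0 to 8 and 0 to 1 for propiconazole minus phenobarbital. With 3 arrays a group, small changes may be missed, and the means of all 35 members lay above background.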
